A study of Homo sapiens with 18 samples.

Results

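TULP3, CD82, RABL6 and GALNT10 were picked as clear rises, genes that stood higher in BT-549 cells with a hairpin against IRF1 than in their control cells, 4 of the 25540 genes listed in that table. They were picked from the IRF1 contrast itself, so their values there are a description and carry no test, while the 2 other experiments of the series took no part in the choice. All 4 passed the filter on low values in all 3 experiments. The series holds 18 RNA-seq libraries, 3 for each of 6 groups. BT-549 triple-negative breast cancer (TNBC) cells, BRCA1 wild type, carried a stable shRNA against IRF1 (IRF1shRNA) and were compared with BT-549 cells carrying a stable control shRNA (the IRF1 experiment). A further set of BT-549 cells carried a stable shRNA against PBRM1 (PBRM1shRNA) and had control shRNA cells of its own (the PBRM1 experiment). MDA-MB-436 TNBC cells, BRCA1 mutant, held an shRNA against MUC1 that tetracycline-class drugs switch on (tet-MUC1shRNA), and were given doxycycline (DOX) at 500 ng/ml, against 0.1% DMSO as vehicle (the MUC1 experiment). All cells of the 6 groups were puromycin resistant, with a single hairpin per target gene. The time of exposure to DOX is not given in the sources used here, and DOX-treated cells with a control shRNA were not analysed here.

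Cells process an expressed hairpin (shRNA) into a small RNA that silences a matching transcript. IRF1 is a transcription factor that activates interferon genes, PBRM1 is a bromodomain subunit of the PBAF chromatin remodeling complex, and MUC1 is a transmembrane mucin. The 4 genes belong to unrelated families. TULP3, a tubby-family protein, binds membrane phosphoinositides and the intraflagellar transport complex IFT-A and carries receptors into the primary cilium, among them GPR161, which restrains Hedgehog signaling. CD82 (KAI1) is a tetraspanin, a membrane organizer that associates with integrins and growth factor receptors and is known as a suppressor of metastasis. RABL6 is a RAB-like GTPase known as a partner of the ARF tumor suppressor. GALNT10 is a polypeptide GalNAc transferase, an enzyme that attaches the first sugar of mucin-type O-glycans to proteins passing through the Golgi.

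In the GENCODE annotation of GRCh38, the build of the processed files, all 4 genes lie on the plus strand of different chromosomes. TULP3 spans chr12:2877223-2941140, CD82 chr11:44564427-44620363, RABL6 chr9:136807943-136841187 and GALNT10 chr5:154190730-154420984. Their promoters are shown because the genes were all chosen as rises in the IRF1 experiment. What the sequences share is a description, and a link to the rises was not tested. The RefSeq promoter table (GRCh38.p14) held all 4 genes as windows of 300 bases, 250 before and 50 after the annotated start. The 150 bases just before the first GENCODE exon that falls in the window are printed from 5′ to 3′, with CpG dinucleotides in capitals. For TULP3 and CD82 a further annotated transcript begins upstream of the window, at the gene start given above, so these stretches precede an internal start and lie inside the gene span.
TULP3 (chr12:2890737-2890886, plus strand): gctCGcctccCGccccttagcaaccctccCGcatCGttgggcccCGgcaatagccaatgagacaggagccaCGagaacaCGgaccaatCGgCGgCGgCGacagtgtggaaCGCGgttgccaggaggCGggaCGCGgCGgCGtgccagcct
CD82 (chr11:44565441-44565590, plus strand): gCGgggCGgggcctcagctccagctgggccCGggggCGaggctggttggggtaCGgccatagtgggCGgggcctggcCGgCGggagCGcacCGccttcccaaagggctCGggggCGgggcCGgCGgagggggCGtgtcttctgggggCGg
RABL6 (chr9:136807793-136807942, plus strand): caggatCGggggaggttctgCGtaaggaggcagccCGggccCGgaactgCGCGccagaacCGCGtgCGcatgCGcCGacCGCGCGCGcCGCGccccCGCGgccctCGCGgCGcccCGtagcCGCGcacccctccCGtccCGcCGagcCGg
GALNT10 (chr5:154190580-154190729, plus strand): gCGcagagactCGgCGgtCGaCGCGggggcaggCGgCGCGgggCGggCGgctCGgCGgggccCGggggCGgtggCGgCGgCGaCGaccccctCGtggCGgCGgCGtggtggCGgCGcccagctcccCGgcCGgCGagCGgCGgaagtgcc
The printed stretches held 18 CpG in TULP3, 16 in CD82, 29 in RABL6 and 30 in GALNT10. Over the whole window the GC content was 68.0% in TULP3, 76.7% in CD82, 74.3% in RABL6 and 81.0% in GALNT10, against a median of 58.3% over 27305 promoters. CpG counts in the window were 35, 33, 46 and 51 in the same order of genes, against a median of 14, so all 4 lay above it. Both medians also cover promoters of genes that did not pass the filter, and how expressed genes compare was not tested. The element bound by IRF factors, searched on both strands as GAAA, any 2 bases and GAAA again, was present in 0 of the 4 windows and in 3.65% of all promoters. It was present in 2.72% of the 7173 promoters of genes tested in the IRF1 experiment. Among genes that were lower in IRF1shRNA cells by more than 1 on the log2 scale, 1.78% of all genes tested, 32 of the 117 promoters that matched held it (27.4%). A missing match says only that these letters are not in these windows.

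Values are TPM, a transcript abundance that divides reads by transcript length and scales each library to a fixed total. Tests used limma on log2(TPM + 1), with p-values adjusted over all genes tested in an experiment, and a log2 fold is silenced over control on that scale, with its standard error (SE). The targeted genes followed their labels. IRF1 had 1.17 ± 0.137 TPM in IRF1shRNA cells and 4.75 ± 0.410 TPM in control cells (SD, n = 3 each), a log2 fold of -1.40 ± 0.126. PBRM1 had 2.96 ± 0.266 TPM in PBRM1shRNA cells and 11.9 ± 1.02 TPM in control cells, and MUC1 had 3.03 ± 0.538 TPM with DOX and 5.63 ± 0.702 TPM with vehicle. IRF1 itself was also lower in PBRM1shRNA cells, at 7.46 ± 0.567 TPM against 24.4 ± 1.62 TPM in control cells (log2 fold -1.59 ± 0.088). In MDA-MB-436 cells IRF1 had 4.89 ± 0.290 TPM with DOX and 4.74 ± 0.443 TPM with vehicle. PBRM1 was lower there, at 15.1 ± 0.434 TPM with DOX and 23.4 ± 1.63 TPM with vehicle (log2 fold -0.60 ± 0.064). MUC1 was lower in PBRM1shRNA cells, at 18.5 ± 1.20 TPM against 27.5 ± 2.85 TPM in control cells (-0.54 ± 0.087). In the IRF1 experiment neither PBRM1 (0.02 ± 0.146) nor MUC1 (-0.08 ± 0.146) passed the limma test on TPM as deposited. PBRM1 did pass, as a rise, after quantile scaling (0.11 ± 0.040, limma adjusted p = 0.0326). It also passed when TPM was rescaled without short noncoding RNAs (0.13 ± 0.054, limma adjusted p = 0.0447). TMM scaling left PBRM1 short of the threshold (0.09 ± 0.038, limma adjusted p = 0.0637). MUC1 passed in none of these settings. Short noncoding RNAs took 84.8% to 88.5% of TPM in the libraries of the IRF1 experiment, 75.5% to 79.2% in the PBRM1 experiment and 12.02% to 15.2% in MDA-MB-436, which places every other gene of the BT-549 tables on a lower scale. Of 8 leukocyte and endothelial markers, CD68 alone reached 1 TPM in BT-549, while the estrogen and progesterone receptor genes ESR1 and PGR stayed at or below 0.106 TPM in every library and ERBB2 reached at most 6.13 TPM in BT-549 and 20.4 TPM in MDA-MB-436. Of the 12 subtype and lineage markers, the mesenchymal gene VIM had 193 to 436 TPM in BT-549 and 990 to 1862 TPM in MDA-MB-436, and EPCAM and the basal keratins KRT5 and KRT14 stayed at or below 0.149 TPM in BT-549. In bulk libraries, fewer cells that express a gene and less RNA per cell cannot be told apart.

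In the IRF1 experiment all 4 genes were higher in every IRF1shRNA library than in any control library, as were 8.9% of all genes tested, and nothing is read from that since this contrast chose them. TULP3 had 5.29, 7.14 and 5.52 TPM in the 3 IRF1shRNA libraries, against 2.09, 1.68 and 1.56 TPM in the 3 control libraries. CD82 had 11.9, 13.2 and 12.04 TPM in IRF1shRNA cells and 5.25, 5.01 and 4.43 TPM in control cells. RABL6 had 10.6, 12.2 and 11.2 TPM with the hairpin, against 4.90, 4.39 and 4.31 TPM without it. The groups were well separated for these 3 genes, and replicate 2 was the highest IRF1shRNA library for each. GALNT10, the most abundant of the 4, had 20.6, 26.5 and 22.2 TPM in IRF1shRNA cells and 11.9, 9.88 and 9.64 TPM in control cells. Replicate 2 was again highest among the silenced libraries and replicate 1 highest among the controls, and these libraries also had the smallest share of short noncoding RNAs in their groups (86.3% and 84.8% of TPM). The part of that share in the spread of the 4 genes was not tested.

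As ratios of means, TULP3 was 3.37-fold higher in IRF1shRNA cells, CD82 2.53-fold, RABL6 2.50-fold and GALNT10 2.20-fold. The log2 folds were 1.33 ± 0.135 for TULP3, 1.18 ± 0.147 for CD82, 1.16 ± 0.146 for RABL6 and 1.07 ± 0.151 for GALNT10. Of 9135 genes tested, 5 were higher with a log2 fold above 1 (0.0547%), and besides these 4 the rule of size held MT1F, a metallothionein, which had 6.96 ± 0.447 TPM in IRF1shRNA cells and 1.43 ± 0.289 TPM in control cells. Just under that threshold came TNFRSF10D, a decoy receptor for TRAIL, at 0.99 ± 0.093, ARPC3, a subunit of the actin-nucleating Arp2/3 complex, at 0.99 ± 0.150, and UBE2D4, a ubiquitin-conjugating enzyme, at 0.99 ± 0.133. As ratios of means they were 4.04-fold, 2.01-fold and 2.49-fold higher in that order, so TNFRSF10D exceeded all 4 genes by that measure. The order thus depended on the 1 added to each TPM. With a pseudocount of 0.1 their log2 folds were 1.82, 1.01 and 1.28, 25 genes passed with a log2 fold above 1, and GALNT10 ranked 17. GALNT10 crossed the threshold narrowly, with a log2 fold of 0.97 without IRF1shRNA replicate 2. Higher genes made up 5.76% of all genes tested at an adjusted p under 0.05 and lower genes 18.5%, a split that depended on scaling. Higher genes were 23.7% of the genes that passed as deposited, 49.6% with TMM scaling, 56.6% with quantile scaling and 54.6% when short noncoding RNAs were removed and TPM rescaled. With those RNAs removed 82 genes had a log2 fold above 1, and TULP3 ranked 5, CD82 11, RABL6 13 and GALNT10 28 of 12724 genes, against ranks of 2 to 5 of 9135 as deposited.

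**Figure D1:**
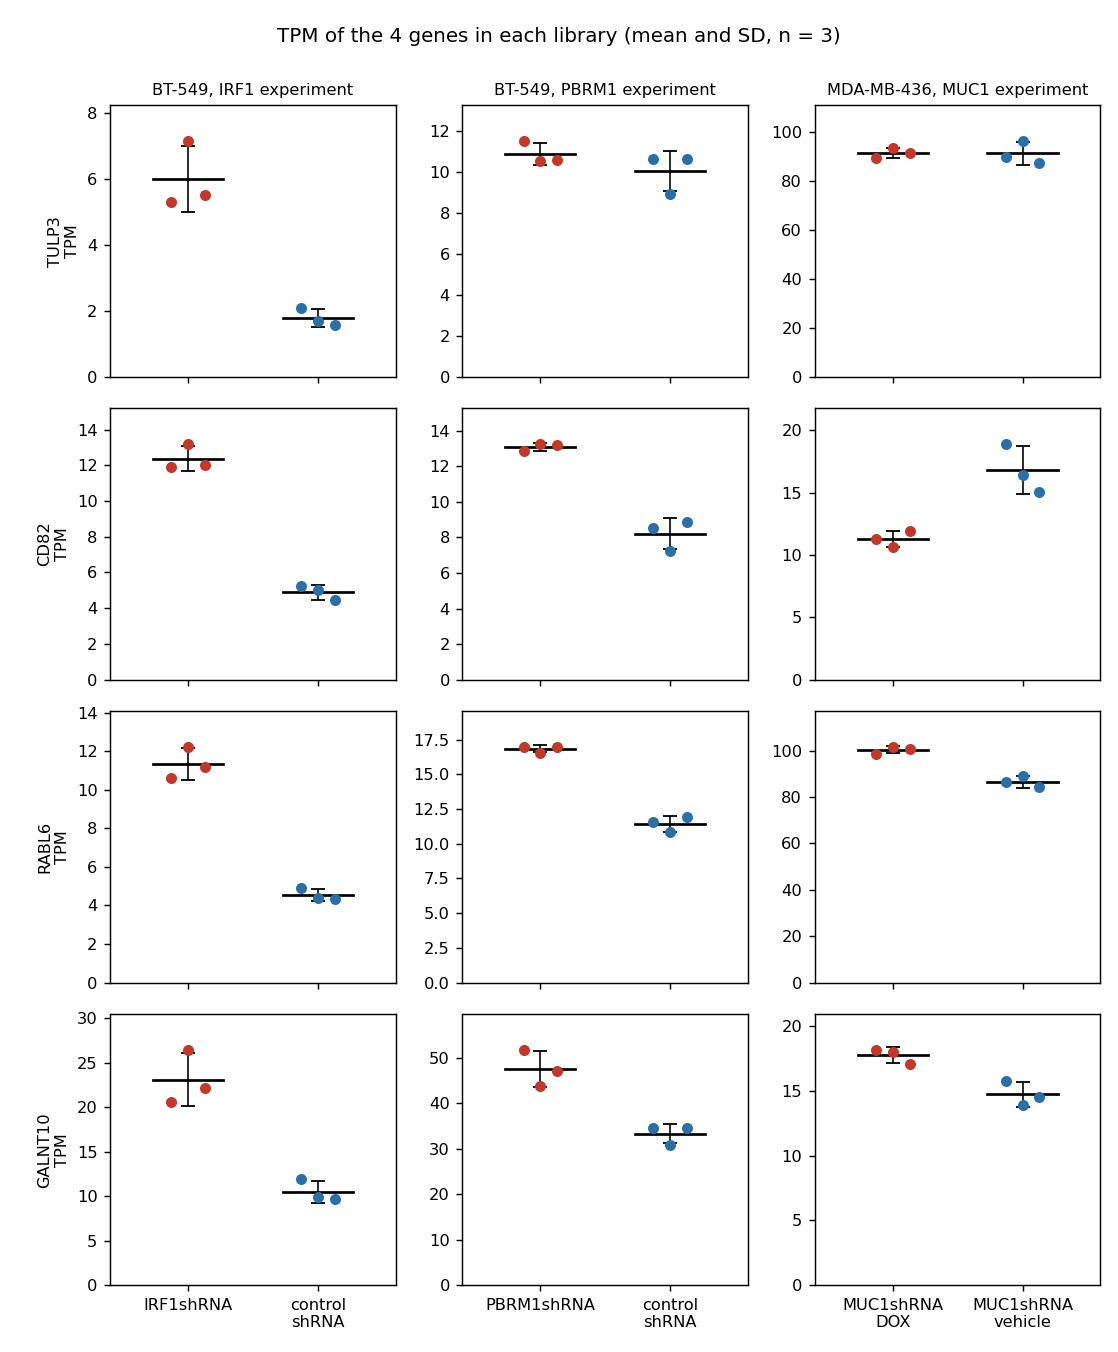
TPM (vertical axes, from 0, scaled per panel) of TULP3, CD82, RABL6 and GALNT10 in the 18 libraries, with the silenced or DOX-treated cells in red on the left and their control or vehicle cells in blue on the right. Points are libraries, and bars give the mean with SD (n = 3). The groups do not overlap in the IRF1 experiment for any of the 4 genes, and CD82 is lower with DOX in MDA-MB-436 (11.3 against 16.8 TPM).

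With PBRM1 silencing in the same cell line, a contrast that took no part in choosing the genes, 3 of the 4 rose. CD82 had 12.8, 13.3 and 13.2 TPM in the 3 PBRM1shRNA libraries, against 8.51, 7.22 and 8.89 TPM in control cells. Its log2 fold was 0.62 ± 0.088 (limma adjusted p = 1.4e-11), and the lowest PBRM1shRNA library lay above the highest control. RABL6 had 17.0, 16.6 and 17.0 TPM in PBRM1shRNA cells and 11.6, 10.8 and 11.9 TPM in control cells. It rose by a log2 fold of 0.52 ± 0.088 (limma adjusted p = 1.6e-08), again with no overlap. GALNT10 had 51.8, 43.9 and 47.0 TPM in PBRM1shRNA cells and 34.6, 30.8 and 34.5 TPM in control cells, a log2 fold of 0.50 ± 0.087 (limma adjusted p = 4.1e-08). All 3 PBRM1shRNA libraries exceeded all 3 controls for each of these genes. TULP3, the gene with the highest fold of the 4 in the IRF1 experiment, did not pass the test here. It had 11.5, 10.5 and 10.6 TPM in PBRM1shRNA cells and 10.6, 8.92 and 10.6 TPM in control cells, with overlapping groups. Its log2 fold was 0.11 ± 0.088 (95% interval -0.07 to 0.28, limma adjusted p = 0.291). Whether the effects of the 2 hairpins on a gene differed was not tested.

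These calls are to be read against the whole experiment, in which 24.6% of 10639 genes tested were higher and 34.8% were lower, and in which 26.5% had all PBRM1shRNA libraries above all controls. The folds of CD82, RABL6 and GALNT10 placed them at ranks 402, 653 and 728 of the 10639 genes, and 6.84% of genes passed the test with a log2 fold of at least 0.5. With the replicate number as a block, TULP3 passed at the same log2 fold of 0.11 ± 0.049 (limma adjusted p = 0.0410), where 32.5% of genes were higher. It also passed with TMM scaling (log2 fold 0.16, limma adjusted p = 0.00192) and with quantile scaling (0.18, limma adjusted p = 0.00144), and had 0.03 with short noncoding RNAs removed. Higher genes were 41.4% of the genes that passed as deposited, 57.1% with quantile scaling and 30.3% with short noncoding RNAs removed, and removing those RNAs placed the median log2 fold of all genes at -0.17, against -0.05 as deposited. CD68 fell within this experiment, at 12.2 to 13.5 TPM in PBRM1shRNA cells against 30.8 to 35.2 TPM in control cells, and it had 5.58 to 6.38 TPM in IRF1shRNA cells against 7.96 to 9.07 TPM in theirs. The other 6 markers besides CD14 were at or below 0.0483 TPM in the BT-549 libraries and CD14 at or below 0.438 TPM, and the part of CD68 in the results was not tested. Lineage markers moved in the PBRM1 experiment as well. The luminal keratin KRT18 had 29.8 TPM in PBRM1shRNA cells and 2.80 TPM in control cells (log2 fold 3.02 ± 0.088), KRT8 (2.03 ± 0.082) and VIM (0.25 ± 0.084) also rose, and FN1 (-1.35 ± 0.087) and ZEB1 (-0.59 ± 0.088) fell, all passing the limma test. With IRF1 silencing KRT18 (-0.64 ± 0.097), VIM (-0.59 ± 0.137) and ERBB2 (-0.37 ± 0.118) fell by the same test, and the part of these genes in the results was not tested.

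In MDA-MB-436 cells the 4 genes moved in different directions with MUC1 silencing. CD82 had 11.3, 10.6 and 11.9 TPM in the 3 DOX libraries and 18.9, 16.5 and 15.1 TPM in the 3 vehicle libraries, with no overlap. It fell by 0.53 on the log2 scale (SE 0.087, limma adjusted p = 9.5e-04), to 0.671 of its level with vehicle. RABL6 had 98.7, 102 and 101 TPM with DOX and 86.3, 89.1 and 84.1 TPM with vehicle, a rise of 0.21 ± 0.038 in log2 fold (limma adjusted p = 0.00149). GALNT10 had 18.2, 17.99 and 17.1 TPM with DOX and 15.8, 13.9 and 14.5 TPM with vehicle, a rise of 0.26 ± 0.065 (limma adjusted p = 0.00981). Every DOX library exceeded every vehicle library for both genes, by 1.16-fold in means for RABL6 and 1.21-fold for GALNT10. TULP3 had 89.3, 93.4 and 91.7 TPM with DOX and 89.9, 96.5 and 87.7 TPM with vehicle, and its groups overlapped. The log2 fold of TULP3 was 0.00 ± 0.045 (95% interval -0.10 to 0.10, limma adjusted p = 0.970), and its sign changed with the scaling. In this experiment 27.0% of 13229 genes tested were higher and 23.4% were lower, 31.5% had all DOX libraries above all vehicle libraries and 27.7% all below, and 8.1% were lower with a log2 fold of -0.5 or less. Markers of other cell types and of lineage moved with DOX too. CD14 had 9.03 TPM with DOX and 4.34 TPM with vehicle (log2 fold 0.89 ± 0.136, limma adjusted p = 6.3e-04), while the summed level of the 8 leukocyte and endothelial markers was 103.8 to 115 TPM with DOX and 108 to 116 TPM with vehicle, most of it CD68, and the 6 other markers were at or below 0.565 TPM. The epithelial genes EPCAM (1.98 ± 0.128), CDH1 (1.75 ± 0.156), KRT18 (1.02 ± 0.033) and KRT8 (0.95 ± 0.033) and the matrix gene FN1 (0.41 ± 0.031) rose, and ZEB1 (-0.86 ± 0.086), VIM (-0.82 ± 0.039) and ERBB2 (-0.21 ± 0.061) fell, all passing the limma test. The part of these markers in the values of the 4 genes was not tested. The effect of DOX itself and that of MUC1 silencing cannot be told apart in these groups.

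**Figure D2:**
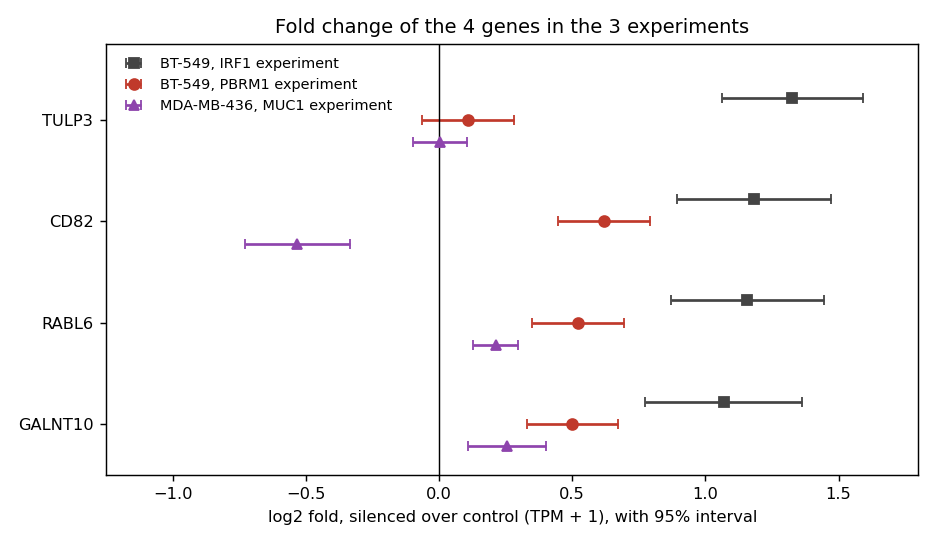
Log2 fold on the TPM + 1 scale (horizontal axis, silenced over control, with 95% intervals) of the 4 genes in the IRF1 (squares), PBRM1 (circles) and MUC1 (triangles) experiments. The IRF1 contrast chose the genes and carries no test. CD82, RABL6 and GALNT10 lie above 0 in the PBRM1 experiment (0.62, 0.52 and 0.50), and CD82 lies below 0 in the MUC1 experiment (-0.53).

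The 2 BT-549 tables allow each gene's level to be set side by side in 4 groups of a single line, although the tables were normalized separately and the values below are therefore a description. The levels in the IRF1 experiment also chose the 4 genes, and a low level in its control cells favors that choice. Nothing is therefore read from the place of those control cells or from the shares of genes given with it. TPM was rescaled to the same total after short noncoding RNAs were removed. TULP3 had 48.5 ± 3.23 in IRF1shRNA cells and 13.3 ± 0.454 in their control cells, against 45.6 ± 2.17 in PBRM1shRNA cells and 44.6 ± 1.66 in theirs (rescaled TPM, SD, n = 3 each). The control cells of the IRF1 experiment were thus lowest for TULP3, and the other 3 BT-549 groups lay between 42.8 and 52.2 in all their libraries. The log2 difference between the control cells of the 2 experiments was -1.68 for TULP3, at or below which lay 1.53% of 9016 genes. CD82 showed another order, with 101.2 ± 4.06 in IRF1shRNA cells and 36.8 ± 2.49 in their controls, against 55.0 ± 2.78 in PBRM1shRNA cells and 36.4 ± 1.61 in theirs. Both control groups were close for CD82 (log2 difference 0.02), and the IRF1shRNA cells were the group that stood highest. RABL6 had 92.7 ± 3.53 in IRF1shRNA cells and 34.1 ± 1.73 in their controls, against 70.7 ± 1.71 in PBRM1shRNA cells and 51.0 ± 0.908 in theirs. GALNT10 had 188 ± 7.51 in IRF1shRNA cells and 78.5 ± 0.850 in their controls, against 199 ± 12.4 in PBRM1shRNA cells and 148 ± 1.94 in theirs. IRF1shRNA and PBRM1shRNA libraries overlapped for GALNT10, and the control cells of the IRF1 experiment were again lowest, with a log2 difference of -0.91 from the other controls (9.02% of genes at or below). For RABL6 that difference was -0.57, with 20.7% of genes at or below, and the median over all genes was -0.11.

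MDA-MB-436 cells differed from BT-549 in the order of these genes. On the rescaled scale TULP3 had 104.5 ± 2.18 with DOX and 105.3 ± 3.84 with vehicle, and RABL6 had 115 ± 1.57 with DOX and 99.7 ± 1.37 with vehicle, above every BT-549 group. CD82 had 12.9 ± 0.723 with DOX and 19.4 ± 2.02 with vehicle, and GALNT10 had 20.3 ± 0.693 with DOX and 17.0 ± 1.14 with vehicle, below every BT-549 group. In rank among the 25492 genes listed in all 3 tables, GALNT10 stood above 96.6% to 96.8% of genes in IRF1shRNA libraries and above 91.7% to 92.1% in their controls. In MDA-MB-436 it stood above 72.8% to 73.6% with DOX and 70.2% to 71.8% with vehicle. By rank RABL6 was not above every BT-549 group. It stood above 93.1% to 93.4% of genes with DOX and 92.3% to 92.5% with vehicle, against 92.7% to 93.3% in IRF1shRNA libraries. Cell line and table cannot be told apart in these comparisons. The authors' mean normalized counts over the 6 libraries of the IRF1 experiment were 2594 for TULP3, 2885 for CD82, 6816 for RABL6 and 22549 for GALNT10, so none of the 4 rested on a handful of reads. The lowest such value was 107, for CD82 in the MUC1 experiment.

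**Figure D3:**
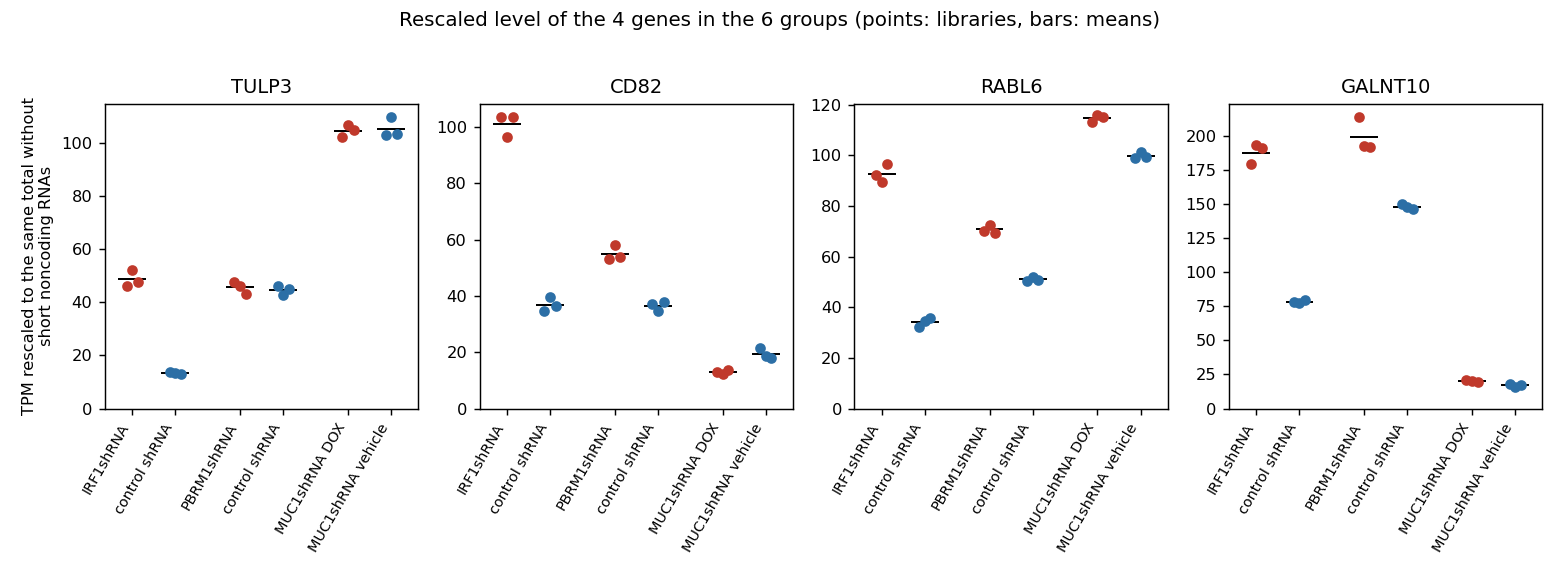
TPM rescaled to the same total without short noncoding RNAs (vertical axes, from 0) of the 4 genes in the 6 groups, silenced or DOX-treated cells in red and their control or vehicle cells in blue. Points are libraries and bars are means (n = 3). The control cells of the IRF1 experiment are lowest among the BT-549 groups for TULP3 (13.3), RABL6 (34.1) and GALNT10 (78.5), while both control groups are alike in level for CD82 (36.8 and 36.4). The IRF1 contrast chose the genes, so these levels are a description.

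Each gene was set beside the other tested members of its family, and each count is to be read against the share of all genes tested in the same setting. In the IRF1 experiment 5.76% of all genes were higher and 18.5% lower as deposited, 34.2% and 34.8% with TMM scaling, 39.7% and 30.4% with quantile scaling, and 35.3% and 29.4% with short noncoding RNAs removed. With PBRM1 silencing 24.6% were higher and 34.8% lower as deposited, 42.8% and 32.2% with quantile scaling, 22.0% and 50.8% with short noncoding RNAs removed, and 32.5% and 43.0% with the replicate block. In the MUC1 experiment the shares were 27.0% and 23.4% as deposited and 25.1% to 26.2% in either direction with the other scalings.

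Of 27 other genes of the tubby family, intraflagellar transport and cilium trafficking, 5 were higher and 2 lower in IRF1shRNA cells, with a median log2 fold of 0.05 against -0.06 over all genes tested. IFT122, a core subunit of the IFT-A complex that TULP3 binds, had 4.30 ± 0.522 TPM in IRF1shRNA cells and 2.61 ± 0.396 TPM in control cells (log2 fold 0.56 ± 0.135, limma adjusted p = 3.9e-04). IFT20, a subunit of the IFT-B complex, rose by a log2 fold of 0.51 ± 0.140 (limma adjusted p = 0.0021), whereas the ciliary adenylyl cyclase gene ADCY3 fell by 0.68 on the log2 scale (SE 0.104, limma adjusted p = 1.8e-09) and INPP5E, a ciliary phosphoinositide phosphatase, by 0.42 (SE 0.122, limma adjusted p = 0.00427). IFT20 lost its call without control replicate 2 (0.47, limma adjusted p = 0.0626) and INPP5E without IRF1shRNA replicate 1 (-0.37, limma adjusted p = 0.0860). The higher count was 15 with TMM scaling, where 34.2% of all genes were higher, 16 with quantile scaling (39.7% of all genes) and 17 of 33 without short noncoding RNAs (35.3% of all genes). In PBRM1shRNA cells 4 of 31 were higher and 11 lower (median -0.08, against -0.05 over all genes). IFT122 rose there too (0.34 ± 0.087, limma adjusted p = 2.7e-04), while IFT20 (-0.44 ± 0.087, limma adjusted p = 1.4e-06) and the IFT-A subunit gene WDR19 (-0.63 ± 0.086, limma adjusted p = 1.5e-12) fell. With quantile scaling 13 of the 31 were higher and 9 lower, with short noncoding RNAs removed 4 were higher and 18 lower, and with the replicate block 7 were higher and 14 lower. In MDA-MB-436 6 of 34 were higher and 3 lower, among them TUB, the founding tubby gene, at 8.31 ± 0.151 TPM with DOX and 16.7 ± 1.16 TPM with vehicle (log2 fold -0.92 ± 0.070, limma adjusted p = 1.15e-05).

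Of 26 genes of the Hedgehog pathway, which TULP3 touches through GPR161, 8 passed the filter in the IRF1 experiment as deposited. Among these 0 were higher and 1 was lower, or 2 higher and 4 lower with TMM scaling. With short noncoding RNAs removed 18 were tested, 4 higher and 8 lower, where 35.3% of all genes were higher and 29.4% lower. In PBRM1shRNA cells 6 of 18 were higher and 6 lower. HHIP, a decoy that binds Hedgehog ligands, had 3.80 ± 0.173 TPM in PBRM1shRNA cells and 1.31 ± 0.162 TPM in control cells, and the signal transducer SMO rose by a log2 fold of 0.45 ± 0.085 (limma adjusted p = 5.3e-07). The co-receptor genes BOC (-0.97 ± 0.076) and CDON (-0.92 ± 0.077) fell, as did the transcription factor and target gene GLI1 (-0.52 ± 0.073), each passing the limma test. In MDA-MB-436 10 of 20 were lower and 2 higher with DOX, against 23.4% and 27.0% over all genes tested, with a median of -0.24 against 0.02 over all genes. SMO had 8.32 ± 0.170 TPM with DOX and 15.0 ± 1.72 TPM with vehicle (log2 fold -0.77 ± 0.086, limma adjusted p = 1.05e-04). Those counts were 10 or 11 lower and 2 higher with every other scaling.

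Among 12 other tetraspanins, 2 were higher and 3 lower in IRF1shRNA cells, with a median log2 fold of -0.15, and 4 were higher and 6 lower with TMM or quantile scaling. CD9, a tetraspanin also known for restraining cell motility, had 10.7 ± 1.44 TPM in IRF1shRNA cells and 21.3 ± 1.91 TPM in control cells (log2 fold -0.93 ± 0.150, limma adjusted p = 1.5e-08). It was lower in PBRM1shRNA cells as well, with 22.1 ± 0.447 TPM against 39.2 ± 2.80 TPM in control cells (-0.80 ± 0.087, limma adjusted p = 6.2e-19). TSPAN13 rose in all 3 experiments, with log2 folds of 0.35 ± 0.117 in IRF1shRNA cells (limma adjusted p = 0.0143), 0.78 ± 0.081 in PBRM1shRNA cells (limma adjusted p = 4.6e-21) and 0.67 ± 0.100 with DOX in MDA-MB-436 (limma adjusted p = 5.5e-04), and its call in the IRF1 experiment ended without any of 5 single libraries, all but control replicate 1 (log2 folds of 0.26 to 0.41). TSPAN1 had 14.3 ± 2.29 TPM with DOX and 0.865 ± 0.113 TPM with vehicle in MDA-MB-436, the largest rise among the tetraspanins tested (log2 fold 3.03 ± 0.124, limma adjusted p = 4.0e-07). Counts over the other tetraspanins were 5 of 14 higher and 4 lower in PBRM1shRNA cells, and 5 of 22 higher and 7 lower with DOX, where 27.0% of all genes were higher and 23.4% lower.

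Of 12 genes whose products associate with tetraspanins, 0 were higher and 6 lower in IRF1shRNA cells (median -0.30), against 5.76% higher and 18.5% lower over all genes. The lower count was 8 with TMM scaling, where 34.8% of all genes were lower, and 7 with quantile scaling or, of 13, with short noncoding RNAs removed, and these last settings each gave 2 higher. The laminin-binding integrin chain ITGA3 had 8.65 ± 0.588 TPM in IRF1shRNA cells and 19.4 ± 1.85 TPM in control cells (log2 fold -1.07 ± 0.150, limma adjusted p = 3.1e-11). ITGA6, a chain of the same integrin class, had 4.45 ± 0.720 TPM against 10.1 ± 1.71 TPM in control cells (-1.02 ± 0.146, limma adjusted p = 8.0e-11). IGSF8, an immunoglobulin-domain partner of CD82 and CD9, had 0.886 ± 0.0998 TPM in IRF1shRNA cells and 2.71 ± 0.125 TPM in control cells (-0.98 ± 0.108, limma adjusted p = 1.2e-17). In PBRM1shRNA cells 7 of 13 were higher and 2 lower (median 0.34), against 8 higher and 6 lower of 14 with short noncoding RNAs removed and 8 higher and 4 lower of 13 with the replicate block. ITGA6 (0.75 ± 0.087), the fibronectin- and VCAM-1-binding chain ITGA4 (1.06 ± 0.087) and the receptor tyrosine kinase MET (0.63 ± 0.088) rose, and PTGFRN, a relative of IGSF8, fell to 0.0408 ± 0.00554 TPM in PBRM1shRNA cells, against 1.65 ± 0.283 TPM in control cells, all passing the limma test. With DOX 4 of 14 were higher and 6 lower, with ITGA6 among the higher genes (0.79 ± 0.034, limma adjusted p = 5.4e-07) and ITGA3 (-0.62 ± 0.038, limma adjusted p = 3.6e-06) among the lower.

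Around RABL6, 1 of 25 other RAB and RAB-like GTPases was higher and 7 were lower in IRF1shRNA cells (median -0.20), 6 of 26 were higher and 6 lower in PBRM1shRNA cells, and 7 of 28 were higher and 7 lower with DOX. RAB7A, the GTPase of late endosomes, had 18.6 ± 1.89 TPM in IRF1shRNA cells and 42.7 ± 6.22 TPM in control cells (log2 fold -1.15 ± 0.152, limma adjusted p = 1.5e-12). RAB11B, which acts in recycling endosomes, fell to 6.84 ± 0.444 TPM in IRF1shRNA cells, against 13.9 ± 1.29 TPM in control cells (-0.92 ± 0.148, limma adjusted p = 1.5e-08). The lower count was 13 with TMM scaling and 11 both with quantile scaling and with short noncoding RNAs removed, and 4 to 7 genes were then higher, the last setting with a median of 0.01. In PBRM1shRNA cells 7 of 27 were higher and 16 lower with short noncoding RNAs removed, where 50.8% of all genes were lower, and 7 of 26 were higher and 11 lower with the replicate block. In the ARF circuit that RABL6 is linked to, 0 of 9 genes were higher and 4 lower in IRF1shRNA cells. CDKN2A, which encodes ARF and the inhibitor p16, had 34.1 ± 0.568 TPM in IRF1shRNA cells and 52.7 ± 4.47 TPM in control cells (-0.61 ± 0.151, limma adjusted p = 5.5e-04). CDKN1A, the cell cycle inhibitor p21, fell in IRF1shRNA cells (-0.85 ± 0.133, limma adjusted p = 4.4e-09) and in PBRM1shRNA cells (-1.33 ± 0.088, limma adjusted p = 2.05e-50), and rose with DOX in MDA-MB-436 (0.69 ± 0.057, limma adjusted p = 1.7e-05). ARF circuit genes were higher in 2 of 9 and lower in 5 with PBRM1 silencing, against 24.6% and 34.8% of all genes, and higher in 4 and lower in 4 with DOX, against 27.0% and 23.4%.

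Among the polypeptide GalNAc transferases, 0 of 5 genes besides GALNT10 passed the test in the IRF1 experiment as deposited, while all 5 were higher with TMM or quantile scaling and 5 of 7 with short noncoding RNAs removed, settings in which 34.2%, 39.7% and 35.3% of all genes were higher. Their median log2 fold was 0.10, and the highest of them, GALNT2, had 21.8 ± 2.45 TPM in IRF1shRNA cells and 16.6 ± 1.99 TPM in control cells (0.38 ± 0.151, limma adjusted p = 0.0518). In PBRM1shRNA cells 4 of 6 were higher and 2 lower, and 3 of the 6 had a log2 fold above 1, against 1.02% of all genes tested. GALNT2 had 69.5 ± 3.79 TPM in PBRM1shRNA cells and 26.1 ± 2.21 TPM in control cells (1.38 ± 0.087), GALNT7 had 11.7 ± 1.06 TPM against 4.53 ± 0.410 TPM in control cells (1.20 ± 0.088), and GALNT1 had 26.2 ± 1.03 TPM against 12.6 ± 1.32 TPM in control cells (just above 1, SE 0.088). All 3 folds exceeded that of GALNT10 in the same cells (0.50). With DOX 5 of 13 were higher and 2 lower, with GALNT17 at 13.1 ± 0.0842 TPM against 6.98 ± 0.238 TPM with vehicle (0.82 ± 0.066, limma adjusted p = 1.5e-05). Of the genes that extend O-glycans, C1GALT1, which makes the core 1 structure, was the only one of 6 tested to pass in the IRF1 experiment as deposited, and it was lower, at 3.51 ± 0.414 TPM in IRF1shRNA cells against 6.61 ± 1.31 TPM in control cells (-0.74 ± 0.142, limma adjusted p = 2.8e-06). In PBRM1shRNA cells 1 of 7 such genes was higher and 3 lower, or 2 and 4 with the replicate block, and with DOX 5 of 9 were higher and 2 lower.

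**Figure D4:**
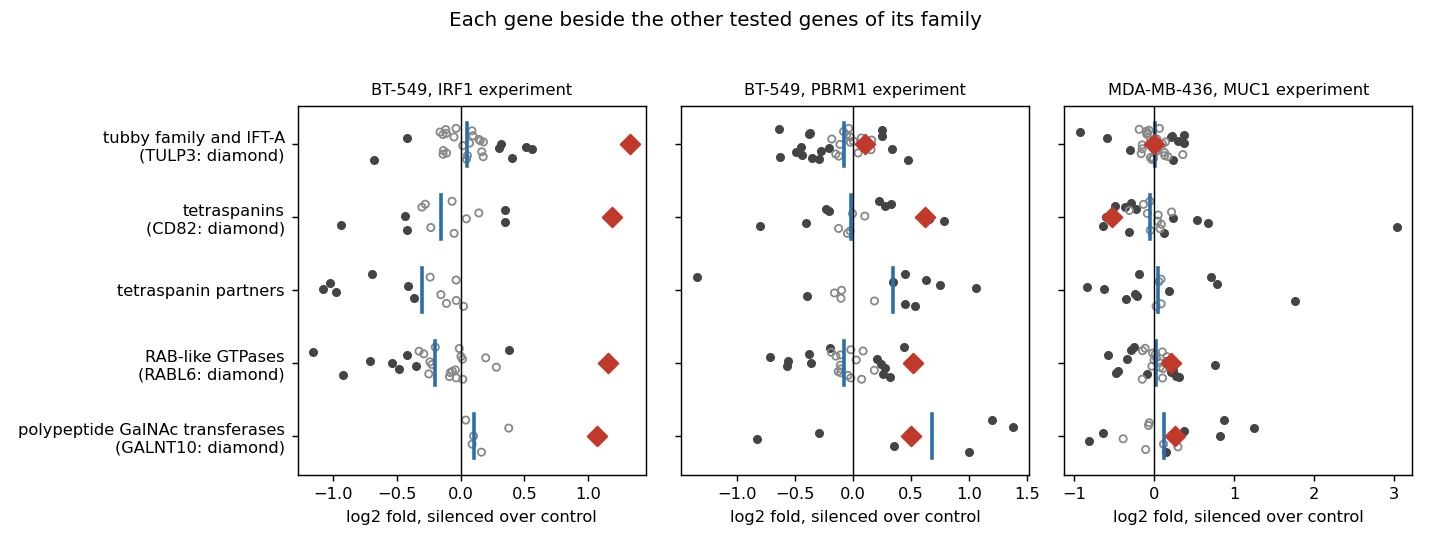
Log2 fold on the TPM + 1 scale (horizontal axes, silenced over control) of the 4 genes (red diamonds) and of the other tested genes of their families and of tetraspanin partners in the 3 experiments. Filled circles passed an adjusted p under 0.05, open circles did not, and blue lines are the medians without the 4 genes. In the PBRM1 experiment the median of the other GalNAc transferases lies at 0.68, and GALNT10 lies at 0.50.

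The genes most alike in pattern were found as those with the highest Pearson correlation of log2(TPM + 1), centered within each table, over the 18 libraries and 8892 other genes that passed the filter in all 3 experiments. The libraries fall into groups that share a table and a hairpin, and the IRF1 contrast that chose the 4 genes is part of the measure, so these values are a description. RABL6 and GALNT10 were among the nearest genes of each other (r = 0.981), and EIF4E2, a cap-binding protein, was near both (r = 0.977 with RABL6 and 0.984 with GALNT10). EIF4E2 had log2 folds of 0.77 ± 0.137 in IRF1shRNA cells, 0.36 ± 0.088 in PBRM1shRNA cells and 0.21 ± 0.043 with DOX. ARPC3 followed for RABL6 (r = 0.966) and FOCAD, a focal adhesion protein, for GALNT10 (r = 0.972). TULP3 was most like SCFD1 (r = 0.975), a regulator of membrane fusion between the endoplasmic reticulum and the Golgi, SLC41A3 (r = 0.975), of a magnesium transporter family, and FAM168A (r = 0.971). CD82 was most like MGAT4B (r = 0.970), an enzyme that branches N-glycans, NUDT16L1 (r = 0.946) and AMPD2 (r = 0.930), an AMP deaminase. MGAT4B had log2 folds of 0.83 ± 0.149 in IRF1shRNA cells, 0.47 ± 0.087 in PBRM1shRNA cells and -0.33 ± 0.033 with DOX, the same signs as CD82.

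Of the 24 nearest tested genes, 3 on each side of each gene in RefSeq order, 1 was higher and 3 were lower in IRF1shRNA cells, against 5.76% and 18.5% of all genes. FAM114A2, 151823 bases from GALNT10, was the higher one, with 2.25 TPM in IRF1shRNA cells and 1.24 TPM in control cells (log2 fold 0.53 ± 0.109, limma adjusted p = 1.5e-05). RHNO1 and TEAD4, on either side of TULP3, fell by 0.42 (SE 0.139, limma adjusted p = 0.0145) and 0.60 (SE 0.139, limma adjusted p = 1.8e-04) on the log2 scale, and HSD17B12 near CD82 fell by 0.46 (SE 0.142, limma adjusted p = 0.00738). RHNO1 and HSD17B12 each lost their call without IRF1shRNA replicate 1 (-0.37 for RHNO1 and -0.44 for HSD17B12), IRF1shRNA replicate 3 (-0.41 and -0.42) or control replicate 2 (-0.43 and -0.47). In PBRM1shRNA cells 5 of 24 neighbors were higher and 7 lower, against 24.6% and 34.8% of all genes, and with DOX 7 were higher and 8 lower, against 27.0% and 23.4%. Some gene models overlap on the same strand in GENCODE, RHNO1 with TULP3 and MFAP3 with GALNT10, so reads in the shared stretches could be counted for either gene or for none. RHNO1 had 3.07 to 5.57 TPM and MFAP3 3.43 to 5.64 TPM in the IRF1 experiment, and MFAP3 had a log2 fold of 0.27 ± 0.141 there (limma adjusted p = 0.168). CCDC183-AS1, which overlaps RABL6 on the other strand, had at most 0.815 TPM in that experiment.

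**Figure D5:**
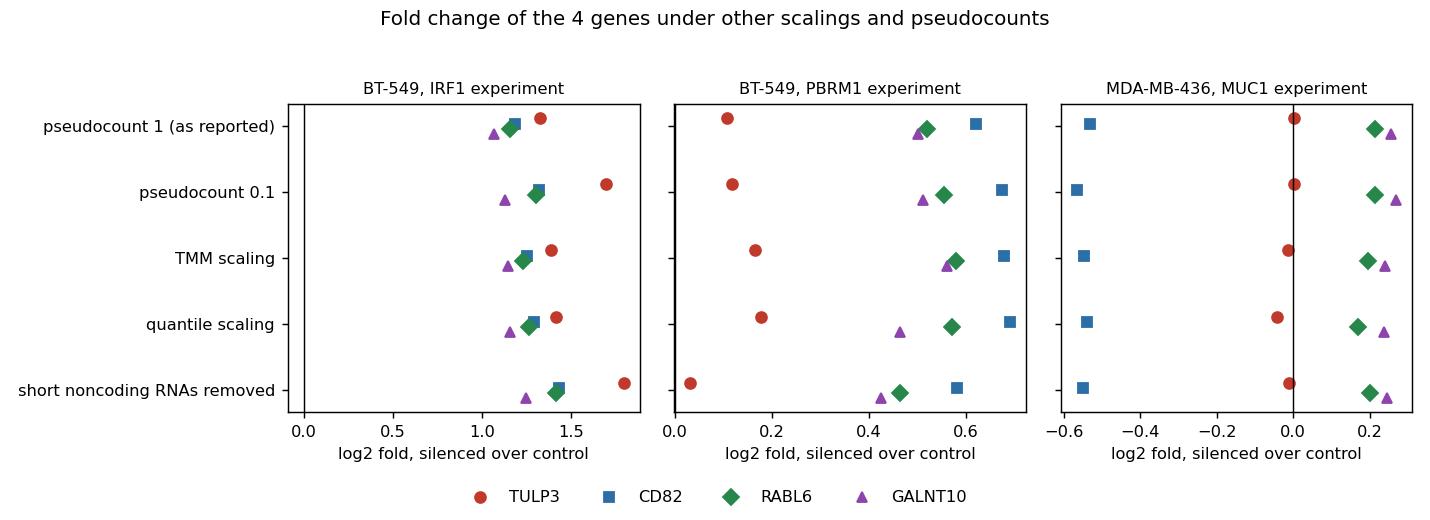
Log2 fold (horizontal axes, silenced over control) of the 4 genes in the 3 experiments under the reported setting, a pseudocount of 0.1, TMM scaling, quantile scaling and removal of short noncoding RNAs. TULP3 lies at 1.79 in the IRF1 experiment and 0.03 in the PBRM1 experiment with those RNAs removed, and near 0 in the MUC1 experiment under every setting shown.

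In the IRF1 experiment the folds of the 4 genes were larger once short noncoding RNAs were removed, at 1.79 ± 0.057 for TULP3, 1.43 ± 0.055 for CD82, 1.42 ± 0.051 for RABL6 and 1.25 ± 0.044 for GALNT10. In the PBRM1 experiment the calls of CD82, RABL6 and GALNT10 held under every alternative run, and in the MUC1 experiment the fall of CD82 and the rises of RABL6 and GALNT10 held likewise.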

How the data were processed

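Total RNA was isolated from triplicate cultures (RNeasy Plus), and polyA-selected libraries were made with a stranded TruSeq mRNA kit. The submitters' processing notes name STAR, DESeq2 and GRCh38. Which counting program, annotation and TPM program were used is not given in the sources used here. Deposited by the authors were 3 tables with TPM per gene and library, normalized separately, each library summing to 1000000. TPM keeps no depth, so the depth of each library is unknown and no counting interval is given. A deposited column of mean normalized counts, a signal already scaled by the authors, was used as a description of abundance. The authors' columns of fold changes and p-values were not used.

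Genes with at least 1 TPM in at least 3 of 6 libraries were tested with limma 3.58.1 (R 4.3.3) on log2(TPM + 1), with lmFit and eBayes with a trend, two-sided, and Benjamini-Hochberg adjustment over all genes tested at a threshold of 0.05. Silenced cells were compared with their own controls in each table. In both BT-549 tables limma found no gene-specific spread beyond its trend, so the SE there follows expression level. The p-values measure the spread between these triplicate libraries. In the BT-549 tables that spread is pooled over genes of like level and is not that of the single gene. An exact permutation test of 3 against 3 could not go below 0.1. The 4 genes, the 8 gene lists and the tests were chosen with earlier results of these data known. Named list genes were those passing the test with an absolute log2 fold above 0.5 in at least 1 experiment, at most 4 per list and experiment, along with the targeted genes, the 3 genes next below the threshold, the nearest genes by position and the 3 most alike in pattern. Naming the closest relative by protein identity was not run, and protein sequences were not used here.

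Alternatives were a pseudocount of 0.1, no filter, a mean of at least 5 TPM, TMM and quantile scaling, removal of short noncoding RNAs, no trend, leaving out each library, and the replicate number as a block. In the PBRM1 experiment libraries were paired by the numbers that end the column names. The deviations of same-numbered libraries correlated at 0.455, 0.309 and 0.290, and those of other pairs at -0.377 to 0.114. This pairing is inferred from the same data and is not given by the labels. Control columns of that table could be tied to their group only. The script was tested on simulated data with 200 changed genes: changes of 1 on the log2 scale were recovered for 100% of genes in the IRF1 design, 100% in the PBRM1 design and 94.0% in the MUC1 design, and changes of 0.5 for 58.9%, 86.5% and 69.0% in that order. Noise was drawn independently for each gene, so shifts shared by all genes of a library were not simulated. These shares therefore do not cover the dependence on scaling. Python 3.11.15, numpy 2.4.6, pandas 2.3.3 and matplotlib 3.10.9 were used for summaries and plots.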

Additional observations from a re-analysis of the deposited data

How the results depend on the processing

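Of the alternative values of the 4 genes, 149 kept their direction and call, or lay within the replicate spread where there was no test. In the IRF1 experiment the log2 fold of TULP3 was 1.69 with a pseudocount of 0.1 and 1.79 with short noncoding RNAs removed. That of CD82 was 1.32 with the pseudocount, 1.29 with quantile scaling and 1.43 without those RNAs, that of RABL6 was 1.30, 1.26 and 1.42 in the same settings, and that of GALNT10 was 1.25 without those RNAs. TULP3 was not tested in that experiment at a mean of at least 5 TPM. In the PBRM1 experiment TULP3 passed the test at 0.16 with TMM scaling, 0.18 with quantile scaling and 0.11 with the replicate block. In the MUC1 experiment TULP3 turned to -0.014 with TMM scaling, -0.043 with quantile scaling and -0.010 without short noncoding RNAs. Leaving out each library gave -0.026 to 0.042 there, and its sign also turned without DOX replicate 2, vehicle replicate 1 or vehicle replicate 3. With 1 library left out, the folds in the IRF1 experiment were 1.21 to 1.41 for TULP3, 1.12 to 1.23 for CD82, 1.11 to 1.204 for RABL6 and 0.97 to 1.16 for GALNT10. In the PBRM1 experiment they were 0.03 to 0.15, 0.54 to 0.67, 0.48 to 0.55 and 0.44 to 0.56 in that order. In the MUC1 experiment CD82 gave -0.60 to -0.45, RABL6 0.19 to 0.23 and GALNT10 0.22 to 0.30. Counts of genes in the IRF1 experiment moved most. Higher genes numbered 526 as reported, 3125 with TMM scaling, 3626 with quantile scaling, 4497 without short noncoding RNAs, 172 at a mean of at least 5 TPM and 864 with no filter. Lower genes numbered 1693, 3178, 2781, 3738 and 645 in the same settings up to the mean filter. Without 1 library they ranged from 190 to 1501 higher, the highest count without control replicate 1 and the lowest without control replicate 2, and from 944 to 1856 lower, the lowest without IRF1shRNA replicate 3. In the PBRM1 experiment 2620 were higher as reported, 4084 with TMM scaling and 4558 with quantile scaling, and 3707 were lower as reported, 1801 at a mean of at least 5 TPM and 6445 without short noncoding RNAs. The cause of these moves was not tested. With 5 neighbors on each side, 2 of 40 were higher and 5 lower in the IRF1 experiment, 11 and 13 in the PBRM1 experiment and 10 and 13 in the MUC1 experiment. In the IRF1 experiment same-numbered libraries correlated at -0.209, 0.0854 and 0.228 and did not each correlate best with their own number, and the replicate block gave 189 higher and 927 lower, and IFT20, INPP5E, TSPAN13, NUDT16L1, AMPD2, RHNO1 and HSD17B12 did not pass with it. In the MUC1 experiment the values were 0.0530, -0.0364 and 0.00575, and the block gave 3491 higher and 2977 lower. The block changed no other call of the 4 genes. Values of the other named genes kept their call in 1612 settings and lost it in 74. Among the targeted genes, PBRM1 in the IRF1 experiment gained a call with quantile scaling and with short noncoding RNAs removed. MUC1 there had -0.08 as reported and 0.02 with those RNAs removed, without a call in either. Depth is unknown, each target had a single hairpin, and the BT-549 values rest on the small share of TPM outside short noncoding RNAs.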
